A study of Mus musculus with 4 samples.

Results

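Gene expression, in total and by parental allele, was compared between 2 libraries from female mouse EpiSCs (epiblast stem cells) that both lack normal SmcHD1 and differ in their Xist mutation. The libraries were chosen by their labels and are 2 of the 4 in the study. The first is Smchd1 MD1/MD1 with XistdeltaA/+ and the second is Smchd1 MD1/MD1 with Xist1lox/+. The MD1/MD1 genotype is thus shared by both, and by label the Xist mutation is what differs. The libraries also differed in inherited strain alleles and in macrophage markers, as given below. The other two libraries, Smchd1 +/+ with XistdeltaA/+ and Smchd1 +/+ with Xist1lox/+, carry the same Xist mutations with SmcHD1 present and served as the background pair. Cells of all 4 came from embryos labelled E6.5, with a C57BL6/J parent on one side and an F1 of JF1 and C57BL6/J on the other. Each combined genotype had 1 library, so there are no replicates, and a read test between 2 libraries compares those libraries and not the conditions. The labels do not say whether a library came from 1 embryo or from several.

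In female mammals one X chromosome is silenced by Xist, a long noncoding RNA that coats the chromosome from which it is made. SmcHD1 is a chromatin protein of the SMC family that is recruited to the inactive X after Xist and helps to keep its genes silent. Some X-linked genes, called escape genes, are expressed from the inactive X in normal cells as well. EpiSCs are pluripotent cells of the primed type, derived from the epiblast, the tissue in which random X inactivation takes place. The XistdeltaA allele lacks the A-repeat, the part of the RNA needed for silencing, and Xist1lox is a deletion allele left by Cre recombination.

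The measure of silencing is the paternal share, the percentage of allele-assigned reads of a gene (reads that cover a strain variant) that carry the paternal variant. A total of 351 of 952 X-linked genes had at least 20 such reads in both MD1/MD1 libraries and were compared, and the other 601 were not. Intervals of shares are exact Clopper-Pearson and those of differences are Newcombe intervals, at 95%, and cover counting error only. A difference in points is the share in Xist1lox/+ minus the share in XistdeltaA/+.

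The promoters of 6 X-linked genes are shown because CpG sites in promoters are where the inactive X is methylated, and because these genes stand at the ends of the comparison. Each sequence is the 250 bases before the annotated start, 5′ to 3′ on the strand of the gene, from RefSeq on GRCm38.p6, with every CG in capitals (CG reads the same on both strands). Ogt (chrX:101639801-101640050, plus strand, 15 CG) and Shroom2 (chrX:152769487-152769736, minus strand, 24 CG) had the highest paternal shares within 5 points in both libraries among genes under 5% in both +/+ libraries. Chm (chrX:113185516-113185765, minus strand, 6 CG) and Hmgn5 (chrX:109013381-109013630, minus strand, 18 CG) had the largest differences in favour of Xist1lox/+ that passed the read test at 50 reads or more. Lpar4 (chrX:106920375-106920624, plus strand, 3 CG) and Morc4 (chrX:139871655-139871904, minus strand, 14 CG) had the largest in favour of XistdeltaA/+. At least 1 CG is present in 91.7% of all 27025 promoter windows of this length and in 99% of those of 291 compared X-linked genes, so its presence describes these windows and sets none of them apart.
Ogt: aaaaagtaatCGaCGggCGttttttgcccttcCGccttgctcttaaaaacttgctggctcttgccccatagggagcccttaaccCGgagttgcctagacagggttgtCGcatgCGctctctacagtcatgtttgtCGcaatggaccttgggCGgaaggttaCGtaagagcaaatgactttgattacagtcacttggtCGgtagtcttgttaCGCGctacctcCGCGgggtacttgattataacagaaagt
Shroom2: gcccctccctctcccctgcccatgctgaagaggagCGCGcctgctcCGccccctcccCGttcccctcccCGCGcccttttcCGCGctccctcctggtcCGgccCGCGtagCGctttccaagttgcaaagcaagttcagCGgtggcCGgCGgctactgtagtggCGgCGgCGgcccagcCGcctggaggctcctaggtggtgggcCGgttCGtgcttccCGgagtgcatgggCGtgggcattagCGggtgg
Chm: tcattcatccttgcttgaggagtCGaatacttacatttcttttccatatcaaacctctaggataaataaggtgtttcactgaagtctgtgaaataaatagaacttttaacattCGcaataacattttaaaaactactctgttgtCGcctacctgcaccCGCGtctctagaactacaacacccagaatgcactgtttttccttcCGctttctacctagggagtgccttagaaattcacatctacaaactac
Hmgn5: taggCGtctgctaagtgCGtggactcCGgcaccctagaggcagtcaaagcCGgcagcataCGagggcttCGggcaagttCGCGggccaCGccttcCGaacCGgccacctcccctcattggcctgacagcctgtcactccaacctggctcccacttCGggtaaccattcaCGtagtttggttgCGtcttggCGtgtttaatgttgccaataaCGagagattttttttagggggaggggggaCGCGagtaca
Lpar4: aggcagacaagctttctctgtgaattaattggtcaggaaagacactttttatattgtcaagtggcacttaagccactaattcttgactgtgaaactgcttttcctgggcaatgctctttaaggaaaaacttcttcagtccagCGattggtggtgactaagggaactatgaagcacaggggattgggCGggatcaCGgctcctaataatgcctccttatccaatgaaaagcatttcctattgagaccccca
Morc4: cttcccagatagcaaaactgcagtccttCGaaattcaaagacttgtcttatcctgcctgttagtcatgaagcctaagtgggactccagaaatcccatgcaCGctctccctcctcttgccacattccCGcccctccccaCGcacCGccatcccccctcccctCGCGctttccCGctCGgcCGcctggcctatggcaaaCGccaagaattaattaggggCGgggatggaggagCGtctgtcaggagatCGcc

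The labels were checked on the targeted genes and on markers of cell types. Smchd1 (chromosome 17, mm9 71693834 to 71824683) had an FPKM level of 27.0 and of 20.9 with +/+, then 6.68 in MD1/MD1 XistdeltaA/+ and 5.98 in MD1/MD1 Xist1lox/+. It was low in both MD1/MD1 libraries and close between them. The 18 markers of primed epiblast cells had a median log2 ratio of 0.04 and none was past 2-fold between the MD1/MD1 libraries. Macrophage markers differed between libraries. The summed FPKM of the 20 macrophage markers was 24.5 in +/+ XistdeltaA/+, where 7 were listed at 0, 383 in +/+ Xist1lox/+, 1079 in MD1/MD1 XistdeltaA/+ and 346 in MD1/MD1 Xist1lox/+, so the XistdeltaA/+ libraries were the lowest and the highest. Depth was similar, from 7301034 allele-assigned reads in MD1/MD1 Xist1lox/+ to 8008500 in MD1/MD1 XistdeltaA/+.

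The first question was how far the paternal X was active without SmcHD1 in each library. Pooled over the 341 X-linked genes with at least 20 reads in all 4 libraries, 14.8% (14.66 to 14.98) of reads were paternal with XistdeltaA/+ and 13.5% (13.4 to 13.7) with Xist1lox/+. The difference of -1.30 points (-1.53 to -1.06) was larger than counting error. Without Xist, Ftx and Jpx the shares of the other 338 genes were 9.23% and 9.40%, a difference of 0.17 points whose interval (-0.031 to 0.371) spans 0. The median gene was at 3.55% and 3.57%. In the +/+ pair the same 338 genes were at 2.59% with XistdeltaA/+ and 3.44% with Xist1lox/+.

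On the scale of FPKM (fragments scaled by transcript length and library depth) split by allele, the libraries gave similar sums. The paternal part of FPKM over those 338 genes came to 746 with XistdeltaA/+ and 779 with Xist1lox/+, a ratio of 1.04. The maternal sums were 7447 and 7899, a ratio of 1.06. Leaving out the genes within 15 Mb of Xist, the paternal ratio was 0.988 over 285 genes, and the pooled shares were 9.19% and 8.76%, a difference of -0.434 points (-0.650 to -0.218) that exceeds counting error. The sign of the small pooled difference thus depended on which genes near Xist were counted. Macrophage markers, higher in the XistdeltaA/+ library, carried 1.29% and 1.85% paternal reads, and their part in the shares was not tested.

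Gene by gene, the shares of the MD1/MD1 libraries mostly lay near the line of equality. Of the 351 genes, 212 differed by under 2 points and 17 by over 10 points. The difference was above 0 for 154 genes, below 0 for 165 and exactly 0 for 32. The median absolute difference over the 341 genes was 1.43 points, against 0.275 in the +/+ pair, where the median gene was at 0% and 0.228%. Across the 341 genes the shares of both libraries had a Spearman correlation of 0.795, a description over genes that share libraries and depth.

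**Figure D1:**
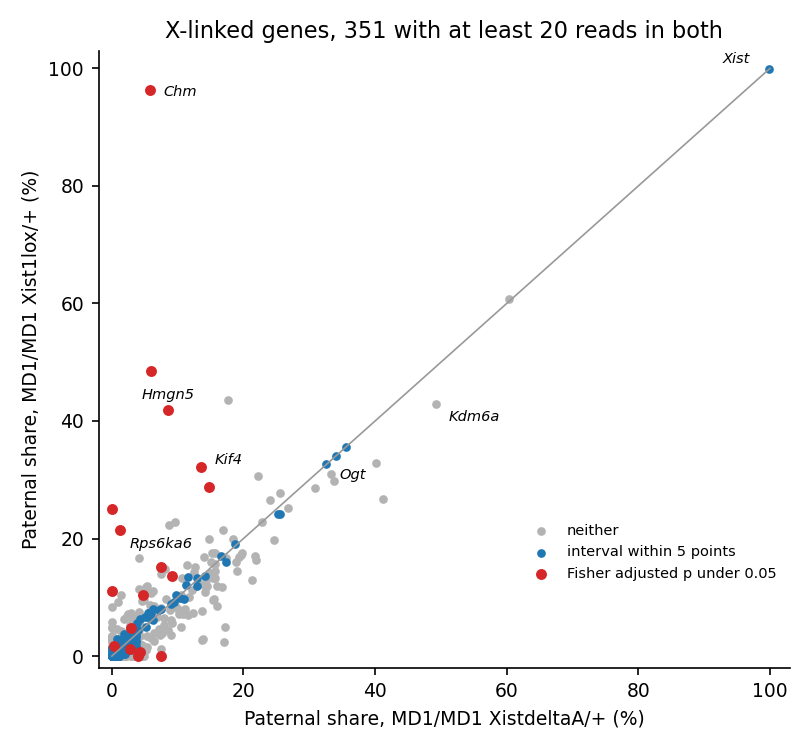
Paternal share of 351 X-linked genes in MD1/MD1 XistdeltaA/+ (x axis, %) and MD1/MD1 Xist1lox/+ (y axis, %), 1 point per gene, with the line of equality. Most genes lie along the line, Ogt and Xist among them, while Chm, Hmgn5, Kif4 and Rps6ka6 lie well above it.

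Fisher's exact test (two-sided, Benjamini-Hochberg adjustment over the 351 genes) called 17 genes, 4.84% of those tested. Of these 13 were higher (3.7%) and 4 lower (1.14%) in Xist1lox/+. The same test called 540 of 6945 autosomal genes (7.78%) in windows where the median share showed both strain alleles in both libraries. Such windows can hold a switch of strain alleles, and 6.06% were called among genes at 10% to 90% in both libraries. The rate on the X was above neither. The autosomal calls leaned to 1 side (405 higher, 135 lower) and autosomal shares were higher, so the rates are not a like comparison. When the variance was raised by the 2.35-fold spread seen on the 6945 autosomal genes, 4 genes remained past the threshold, Chm, Hmgn5, Kif4 and Rps6ka6.

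Shares equal within a stated margin were looked for separately, because a missed threshold does not show equality. For 131 of the 351 genes (37.3%) the whole interval of the difference lay within 5 points of 0. A further 206 genes were neither within that margin nor called. Those 206 had a median of 125.5 reads in the XistdeltaA/+ library, against 564 for the 131 genes, so read number limited which genes could be placed.

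The genes reactivated to the same degree include regulators of transcription, ubiquitin transfer and metabolism. Among genes under 5% paternal in both +/+ libraries, the 12 with the highest shares inside the 5-point margin were Ogt, Shroom2, Med14, Uba1, Utp14a, Hcfc1, Acsl4, Cdk16, Lage3, Cul4b, Med12 and Atp6ap1, of 116 such genes. Ogt (X chromosome, mm9 98835390 to 98879690), the enzyme that adds N-acetylglucosamine to nuclear proteins, had 502 paternal reads of 1544 with XistdeltaA/+ and 489 of 1496 with Xist1lox/+. Those are shares of 32.5% and 32.7%, with a difference of 0.174 points (-3.15 to 3.51). In the +/+ libraries 1 of 1337 and 3 of 1182 Ogt reads were paternal, so its promoter above belongs to a gene that was silent with SmcHD1 and about equally active in both libraries without it.

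Shroom2 (149044052 to 149204029), an actin-binding protein of epithelial cells, was at 25.6% and 24.2%, a difference of -1.32 points (-4.40 to 1.78). Its FPKM was 12.8 with XistdeltaA/+ and 13.1 with Xist1lox/+. Hcfc1 (71188131 to 71211696), a transcriptional coregulator of cell cycle genes, was at 14.1% and 13.7% on 3886 and 3322 reads, which bounds the difference between -2.03 and 1.18 points. Read depth made this one of the tightest intervals among the 12.

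The next genes act in transcription and ubiquitin transfer, and their likeness was fixed by how they were chosen. Med14 and Med12, subunits of the Mediator complex, were at 18.7% and 19.05% and at 10.4% and 9.80%. Uba1, the enzyme that activates ubiquitin, was at 16.6% and 17.1% on 3380 and 3001 reads. Cul4b, a scaffold of ubiquitin ligases, was at 10.9% and 9.78%. In each of these 4 genes the difference had an interval within 5 points and the +/+ libraries were at 4.95% or less.

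The remaining 5 genes ranged from 9.68% to 17.3% in XistdeltaA/+. Utp14a, a factor of ribosomal RNA processing, was at 17.3% and 15.996%, and Acsl4, which activates long-chain fatty acids, was at 12.9% and 13.3%. Cdk16, a cyclin-dependent kinase, was at 11.6% and 13.4%, and Lage3, which acts in tRNA modification, was at 11.2% and 12.1%. Atp6ap1, an accessory subunit of the vacuolar proton pump, was at 9.68% and 10.4%.

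A gene was counted as reactivated when it was at 10% paternal or more in an MD1/MD1 library and under 10% in the +/+ library with the same Xist mutation. This held for 70 genes with XistdeltaA/+ and 68 with Xist1lox/+, and 49 genes were in both lists (70% of the first and 72.1% of the second). A place in both lists in part selects genes that are alike. None of the 49 was called by Fisher's exact test between the MD1/MD1 libraries, against 4.84% of all 351 genes compared. Within the 5-point margin lay 11 of the 49, against 37.3% of the 351, so the 49 were not placed there more often. The 49 genes had median shares of 16.03% and 15.996%, with a median absolute difference of 1.84 points, and 17 were higher in Xist1lox/+. The widest gap among them was Slc35a2, a UDP-galactose transporter, at 21.2% and 12.9% (adjusted p = 0.104, Fisher's exact test). Chic1, a gene beside Xist, had the widest gap in favour of Xist1lox/+, at 16.9% and 21.4%.

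Other genes were listed in 1 library alone, which does not mean that their shares differed. Cul4b, Med12 and Atp6ap1, named above as within 5 points, are among them because their shares lie on either side of 10%. The 21 genes listed with XistdeltaA/+ alone had a median share of 13.6% there and of 8.46% with Xist1lox/+. Among these, 6 were at 10% or more in +/+ Xist1lox/+ and so could not be listed with Xist1lox/+, as with Tmem47 (34.1% and 34.0% in MD1/MD1). The 2 that passed the read test, Kif4 and Snx12, are of those 6 and were higher in Xist1lox/+. Huwe1, a large ubiquitin ligase, was at 11.1% and 8.003%, a difference of -3.097 points (-5.08 to -1.02) that missed the threshold (adjusted p = 0.0735, Fisher's exact test). Trap1a was at 17.0% and 2.44%, on 53 and 82 reads (adjusted p = 0.104, Fisher's exact test).

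The 19 genes listed with Xist1lox/+ alone had a median of 5.41% with XistdeltaA/+ and of 11.8% with Xist1lox/+. Nhsl2 (11.9%) and C330013F16Rik (17.3%), 2 of the 19, were at 10% or more in +/+ XistdeltaA/+. They could thus not be listed with XistdeltaA/+. Of the 19, 4 passed the read test, Dock11, Nhsl2, Sh3bgrl and Txlng. Nsdhl, an enzyme of cholesterol synthesis, was at 5.11% and 10.8%, and Piga, which starts the synthesis of membrane anchors, was at 6.29% and 11.1%. Neither passed, with adjusted p of 0.139 and 0.170 by Fisher's exact test. At the silent end, 98 genes were under 2% paternal in both MD1/MD1 libraries, and 65 of them lay within the 5-point margin.

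The largest differences lay around Xist. Of the 13 genes called higher in Xist1lox/+, 8 were among the 57 genes within 15 Mb of the start of Xist, and 7 of the 8 genes called with more than 10 points were there. Chm (110154201 to 110299124), an escort protein for Rab GTPases, had 11 paternal reads of 188 with XistdeltaA/+ and 154 of 160 with Xist1lox/+. Its share was 5.85% (2.96 to 10.2) in the first and 96.3% (92.0 to 98.6) in the second, and the intervals do not meet (adjusted p = 9.33e-74, Fisher's exact test). The +/+ libraries showed the same split, with 4.05% and 98.1%.

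Hmgn5 (106199876 to 106208719), a nucleosome-binding protein, was at 8.59% and 41.8%, with 0% and 34.1% in the +/+ pair. Rps6ka6 (108501446 to 108651568), a ribosomal S6 kinase, was at 1.25% and 21.5%, with 0.198% and 22.4% in the +/+ pair. Kif4 (97821404 to 97922610), a chromokinesin of mitotic chromosomes, was at 13.6% and 32.2%, and Snx12 (98293125 to 98417902), a sorting nexin, at 14.8% and 28.7%. For Kif4 the +/+ libraries had 0% and 21.9%, and for Snx12 0.416% and 20.6%. In all 5 genes the Xist1lox/+ library was the higher one with and without SmcHD1.

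The other genes of the same stretch called higher in Xist1lox/+ were Sh3bgrl, Efnb1 and Nhsl2. Sh3bgrl (106290746 to 106357806), a small SH3-binding protein, was at 4.71% and 10.5%, with 0% and 4.83% in the +/+ pair. Efnb1, which encodes the signalling ligand ephrin-B1, had 2 paternal reads of 34 and 16 of 33. Nhsl2 had 0 of 86, which allows up to 3.49%, and 9 of 36, while its +/+ shares were 11.9% with XistdeltaA/+ and 5.56% with Xist1lox/+, the opposite order. Efnb1 and Nhsl2 fell under the 50 reads required for naming and are given because they were called.

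Neighbouring genes, chosen after their values were seen, did not share this shift. Between Snx12 and Nhsl2 lies Ogt, at equal shares, and Foxo4, a forkhead transcription factor, was at 11.6% and 6.96%. Ercc6l, a helicase of mitosis, was at 25.6% and 27.7%, and Taf1, a subunit of the general transcription factor TFIID, at 24.7% and 19.7%. Among genes of this stretch, higher shares in Xist1lox/+ were thus mixed with equal or lower ones. A share counts strain variants and not parents, so around Xist expression of the paternal allele cannot be told apart from a paternal-type variant on the maternal X.

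**Figure D2:**
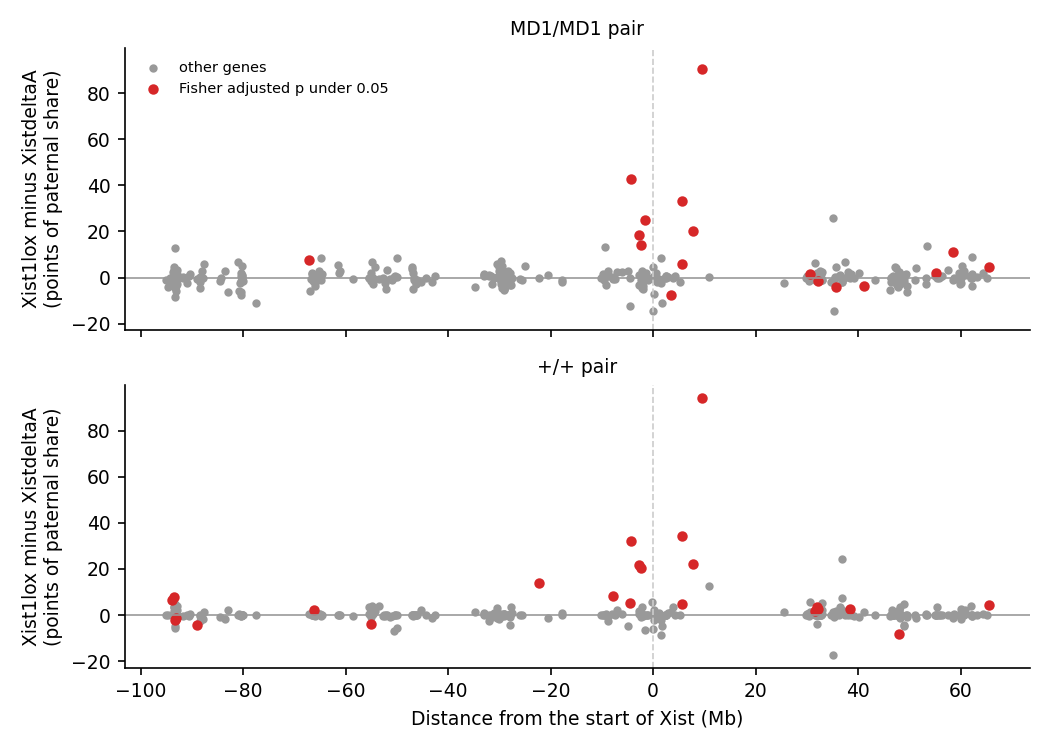
Difference in paternal share (Xist1lox/+ minus XistdeltaA/+, in points) against distance from the start of Xist (Mb), 1 point per X-linked gene, for the MD1/MD1 pair (top) and the +/+ pair (bottom). The genes with the largest positive differences lie within 15 Mb of Xist in both pairs, and Chm is the highest in each.

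Away from Xist, 8 of 294 genes were called, 5 higher and 3 lower, and the largest called difference was 11.1 points. Dock11 (33428827 to 33616557), an activator of the GTPase Cdc42, had 40 paternal reads of 534 with XistdeltaA/+ and 63 of 414 with Xist1lox/+. Its share was 7.49% and 15.2%, a difference of 7.73 points (3.68 to 11.98; adjusted p = 0.0071, Fisher's exact test), while the +/+ libraries had 0 and 1 paternal read. Txlng (159216849 to 159267386), a syntaxin-binding protein, had 0 paternal reads of 107, which allows up to 2.80%, and 10 of 90, a share of 11.1%. Both genes were at 1.12% paternal or less with SmcHD1 present and differed between these libraries without it, and neither passed with the variance raised to the autosomal spread.

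The other 3 differed by under 5 points. Mid1 (166123131 to 166428729), a ubiquitin ligase gene at the end of the X, was at 9.08% and 13.7%, and at 9.85% and 14.3% in the +/+ pair. Eif1ax, a translation initiation factor, was at 2.91% and 4.86%. Armcx2, an armadillo-repeat gene, was at 0.306% and 1.80%, which is under its +/+ shares of 3.41% and 3.72%.

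The 4 genes called lower in Xist1lox/+ were at low shares in both libraries. Lpar4 (104115964 to 104129238), a receptor for lysophosphatidic acid, had 10 paternal reads of 134 with XistdeltaA/+ and 0 of 147 with Xist1lox/+, which allows up to 2.04%. Morc4 (136356174 to 136406193), a chromatin-associated ATPase, had 11 of 273 and 0 of 248, which allows up to 1.21%. Amot (141880967 to 141922182), a scaffold of cell junctions that binds YAP, was at 4.34% and 0.704%, and Bex1 (132748511 to 132750052), a small adaptor protein, at 2.75% and 1.16%. Adjusted p from Fisher's exact test ran from 2.30e-05 for Bex1 to 0.0233 for Morc4. None of the 4 passed with the variance raised to the autosomal spread.

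**Figure D3:**
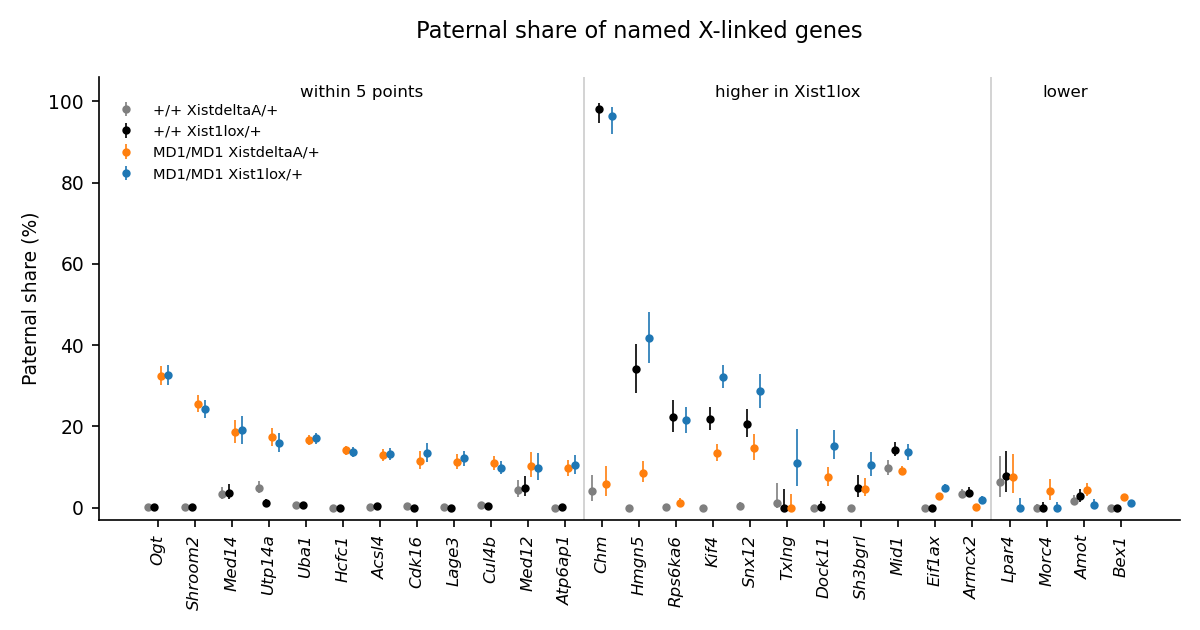
Paternal share (%) of named X-linked genes in the 4 libraries, with exact 95% intervals that cover counting error. The MD1/MD1 points coincide for genes within 5 points, such as Ogt at 32.5% and 32.7%, and for Chm, Hmgn5 and Rps6ka6 the +/+ Xist1lox/+ library is high as well.

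The +/+ pair showed how far these Xist mutations went with differences when SmcHD1 was present. There 23 of 341 genes (6.74%) were called, 18 higher and 5 lower in Xist1lox/+. Of the 17 genes called in the MD1/MD1 pair 8 were also called in the +/+ pair, 47.1% of the first list and 34.8% of the second, and all 8 in the same direction. A test of the difference between both pairs (normal test of log odds ratios, Benjamini-Hochberg adjustment over 341 genes) called 7 genes (2.05%). It compares odds and not points of share. Tmem47, a junction-associated membrane protein, had the lowest adjusted p. It was at 5.58% and 19.6% in the +/+ pair and at 34.1% and 34.0% in the MD1/MD1 pair, where the interval of the difference was -2.59 to 2.39 points. With the variance raised to the autosomal spread Tmem47 was the 1 gene still called.

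Of 15 measured escape genes, 11 and 10 were at 10% or more in the MD1/MD1 libraries, against 81 and 88 of 341 X-linked genes. The list also holds genes near 0 in the +/+ pair, such as Huwe1 (0.159% and 0%) and Ndufb11 (0.169% and 0.388%). The count thus does not separate escape from reactivation. The 5-point margin held 4 of the 15, against 37.3% of all compared X-linked genes, and 1, Mid1, was called, against 4.84%. Ddx3x, an RNA helicase, was at 35.6% and 35.5% on 6600 and 3585 reads, a difference of -0.099 points (-2.04 to 1.85). Kdm6a and Kdm5c, histone demethylases, were at 49.2% and 43.0% and at 33.4% and 31.05%, and both intervals span 0. Flna, an actin-binding filamin on this list, was at 9.02% and 8.81%, against 0.126% and 0.196% in the +/+ pair.

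The X inactivation centre had 7 measured genes, of which none was called and 3 lay within the margin. Xist (100655712 to 100678572) was read at 99.9% and 99.8% paternal, with FPKM of 38.3 and 28.9, so nearly all Xist reads were paternal in both libraries. Ftx, a noncoding activator of Xist, was at 40.2% and 32.9% on 122 and 149 reads. Jpx, another such activator, was at 41.2% and 26.7% on 34 and 45 reads. Rlim, a ubiquitin ligase that promotes Xist expression, was at 5.57% and 7.40% (adjusted p = 0.183, Fisher's exact test). Tsix, the antisense gene of Xist, had FPKM of 1.16 and 0.293 in the MD1/MD1 pair and 2.35 and 0.174 in the +/+ pair. It was the lower in Xist1lox/+ with either Smchd1 genotype, and reads of these overlapping genes may not be told apart.

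Along the chromosome the share varied by region. In 10 Mb windows the pooled MD1/MD1 share was 24.2% and 21.8% at 10 to 20 Mb, against 19.4% and 18.9% in the +/+ pair. The share of that window was thus mostly present with SmcHD1 as well. At 20 to 30 Mb it was 12.3% and 12.4%, against 0.426% and 0.416% in the +/+ pair. Over the 44 genes at 70 to 80 Mb it was 10.8% and 11.95%, against 0.999% and 2.16%. The window at 100 to 110 Mb, which holds Xist, was at 52.96% and 48.3%, against 22.8% and 26.7%. The pooled MD1/MD1 share was low at 60 to 70 Mb, with 1.92% and 2.14%, and at 150 to 160 Mb, with 2.57% and 3.05%. The median difference of genes in a window ran from -1.30 to 0.923 points over the 14 windows that hold at least 9 genes. The window at 110 to 120 Mb, with 2 genes of which Chm is 1, was pooled at 17.8% and 91.0%, a median difference of 45.4 points.

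Promoter sequence was compared between these sets as a description. Over 300 bases around the start, the 43 matched promoters of genes reactivated in both libraries had a median of 18 CG, and 97.7% held at least 10. The 291 matched promoters of all compared X-linked genes had a median of 17, and 77.7% held at least 10, as did 43.9% of all 27025 promoters. The 16 matched promoters of the called genes had a median of 11.5 CG and 50% held at least 10. Genes reactivated in both libraries thus had CG-rich promoters more often than the compared X as a whole, without a test.

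Autosomal shares gave the background for a library pair. Of 248 autosomal windows of 10 Mb, 178 carried both strain alleles in both MD1/MD1 libraries, 33 only in XistdeltaA/+, 17 only in Xist1lox/+, and 18 carried 1 strain alone in both. In the 178 windows 405 genes were called higher and 135 lower in Xist1lox/+, the pooled shares were 46.2% and 47.8%, and the median difference was 1.32 points. Restricted to genes at 10% to 90% in both libraries, 402 of 6638 genes were called (6.06%), and this restriction was chosen after the data were seen. In the 18 windows with 1 strain alone 2.86% and 0.501% of reads were read as paternal, a level partly set by how the windows were picked.

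The named autosomal genes differed widely. Trim6, a tripartite-motif ubiquitin ligase on chromosome 7, was at 0.209% and 48.7%, and Incenp, a subunit of the chromosomal passenger complex on chromosome 19, at 61.0% and 0%. Ikzf2, Inpp5d, Tigd3 and Ace were the others named as higher, by 50.2 to 76.2 points, and Msx1, Nsg1 and Ube2e2 as lower. A window of 10 Mb can hold a switch of strain alleles, so inheritance and expression cannot be told apart for these genes.

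Several imprinted genes had a strong parental bias in both libraries. Paternally expressed Snrpn (counted with Snurf) was read at 99.2% and 99.8%, Mest at 99.3% and 100%, Nnat at 100% and 100%, and Slc38a4 at 99.9% and 100%. Maternally expressed H19 was at 0.053% and 0%, Grb10 at 1.06% and 0.754%, Rian at 0.734% and 0.519% and Cdkn1c at 0% and 0%. Igf2, the paternally expressed growth factor, differed most in windows with both alleles, at 86.0% of 1269 reads and 50.3% of 147 reads, a difference of -35.6 points (-43.8 to -27.4). The +/+ libraries had Igf2 shares of 60.4% and 69.1%, so its share was variable in all 4. Peg13, Plagl1, Ndn and Sgce, also paternally expressed, were more paternal in Xist1lox/+, by 9.12 to 23.2 points with intervals above 0. Impact, at 0.285% and 94.1%, lies in a region that carried 1 strain alone in XistdeltaA/+ and cannot be compared.

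Total expression of X-linked genes was close between the MD1/MD1 libraries. The median log2 ratio of (FPKM + 1), Xist1lox/+ over XistdeltaA/+, was 0.07 over 389 X-linked genes averaging at least 1 FPKM and 0.03 over 11133 autosomal genes. Within 1.5-fold lay 91.5% of the X-linked genes and 92.4% of all genes. The 49 genes reactivated in both libraries had a median log2 FPKM ratio of 0.04. No X-linked gene was 2-fold higher and 6 were 2-fold lower (1.54%), with no test because each side has 1 library.

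The 6 X-linked genes include genes of connective tissue, phagocytes and placenta. Bgn, the matrix proteoglycan biglycan, had FPKM of 79.2 with XistdeltaA/+ and 37.0 with Xist1lox/+, and 19.9 and 33.2 in the +/+ pair, with 0.169% and 0.115% paternal reads in the MD1/MD1 pair. Cybb, a subunit of the phagocyte oxidase, had 3.31 and 0.827, and was listed at 0 in +/+ XistdeltaA/+. Plac1, a placental gene, had 2.37 and 0.338, and Rhox6, a homeobox gene of placenta and germ line, had 2.07 and 0.161. Agtr2, an angiotensin receptor gene, and 3830417A13Rik were the others, with 2.21 and 0.5997, and 3.06 and 0.369. All 6 were highest in MD1/MD1 XistdeltaA/+ of the 4 libraries.

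Over all 11522 genes tested, 36 (0.312%) were at least 2-fold higher in Xist1lox/+ and 271 (2.35%) at least 2-fold lower, on the scale of FPKM + 1, which understates the change of low genes. In the +/+ pair 182 of 11377 (1.6%) were higher and 164 (1.44%) lower. Of the 271 lower genes 67 were higher in Xist1lox/+ in the +/+ pair, 24.7% of the first list and 36.8% of the second, and 6 were lower in both pairs. Those 67 had opposite directions in the MD1/MD1 and +/+ pairs, and with 1 library per genotype a link to SmcHD1 was not tested.

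Among the higher genes were several in which 1 library held more paternal-type reads. Plod2, a lysyl hydroxylase of collagen, had FPKM of 36.2 with XistdeltaA/+ and 192 with Xist1lox/+ (log2 ratio 2.37), and 247 and 258 in the +/+ pair. The MD1/MD1 XistdeltaA/+ library was the low one of 4, and its paternal share was 74.5% against 93.8% to 95.3% in the others. Ggta1, a galactosyltransferase, had 7.22 and 28.3, with shares of 44.9% and 86.1%. Soat1, which esterifies cholesterol, had 18.8 and 49.0, with shares of 50.7% and 85.9%. In these 3 genes the higher library was also the more paternal one.

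For others a whole region differed in strain alleles. Svil, an actin-binding membrane protein, had 3.33 and 13.8, with shares of 0% and 90.3%, in a window with 1 strain alone in XistdeltaA/+. Of genes in such windows 1.46% were higher in Xist1lox/+, against 0.170% in windows with both alleles in both libraries. Ackr4, a scavenging chemokine receptor, had 0.497 and 8.12, in a window with 1 strain alone in Xist1lox/+. The strain alleles and the Xist mutation cannot be told apart in these windows.

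Higher genes in windows with both alleles in both libraries included Id1, Acot1, Ndufa4l2, Ppp2r2c and Lefty1. Id1, an inhibitor of basic helix-loop-helix factors and a target of BMP signals, had FPKM of 27.7 and 73.0, with 62.0 and 98.1 in the +/+ pair. Lefty1, a secreted antagonist and target of Nodal, had 320 and 676, with 472 and 771 in the +/+ pair. Acot1, an acyl-CoA thioesterase, had 5.73 and 21.9, and Ndufa4l2, a mitochondrial protein induced by hypoxia, had 16.2 and 44.9. For these 4 genes the MD1/MD1 XistdeltaA/+ library was the lowest of the 4. Oaz1-ps, Lsm7, Eif3j2, Gm4013 and Hist1h3c were also past 2-fold higher, and Rpl13 past 2-fold lower, and are uncertain because near-identical copies can take their reads. All of these but Eif3j2 also lie in windows with 1 strain alone in 1 of the MD1/MD1 libraries.

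**Figure D4:**
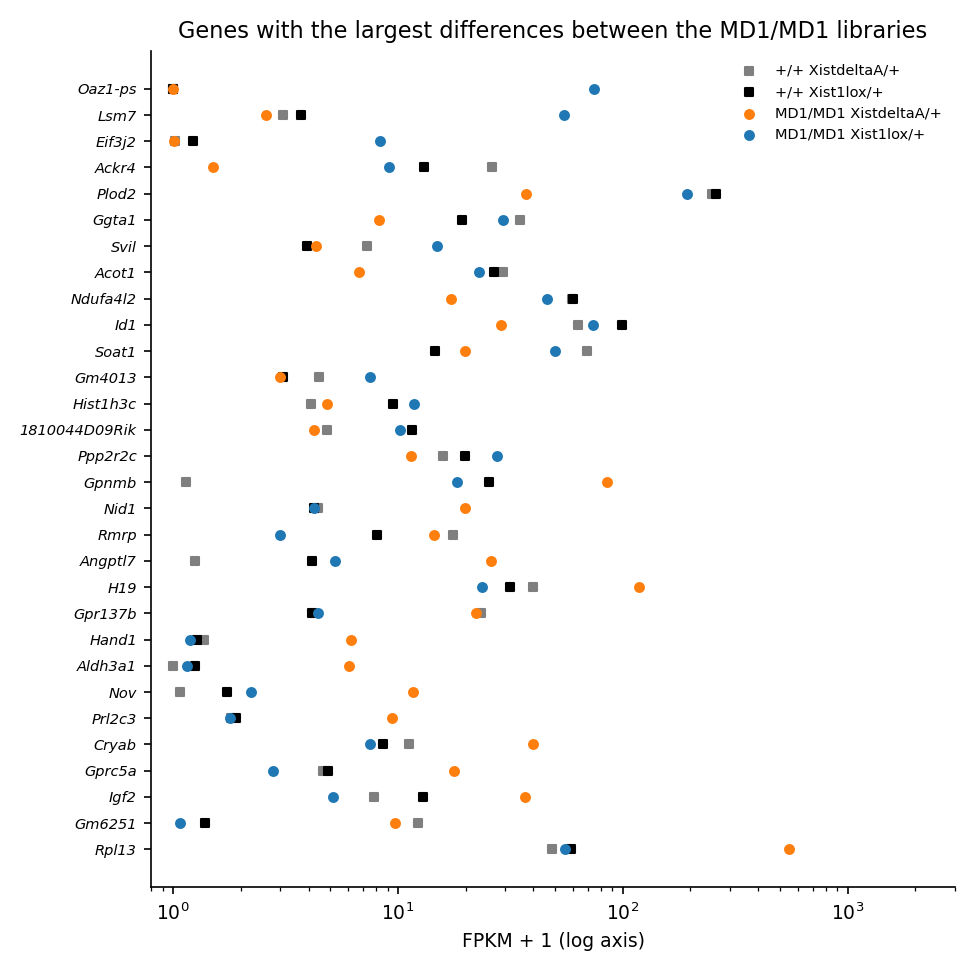
FPKM + 1 (log axis) in the 4 libraries for the genes with the largest differences between the MD1/MD1 libraries, the higher ones at the top. Most of the lower genes are high in MD1/MD1 XistdeltaA/+ and low in the other libraries, as with H19 at 117 against 22.6 to 39.1.

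Of the 271 lower genes, MD1/MD1 XistdeltaA/+ was the highest of the 4 libraries for 265, and MD1/MD1 Xist1lox/+ was the lowest for 48. Igf2 had FPKM of 35.7 and 4.14 (log2 ratio -2.84), with 6.79 and 11.95 in the +/+ pair. H19, the maternally expressed noncoding RNA beside it, had 117 and 22.6, with 39.1 and 30.6 in the +/+ pair. Hand1, a transcription factor of trophoblast and mesoderm, had 5.19 and 0.189, and Nov, a matricellular protein, had 10.6 and 1.22. Cryab, a small heat shock protein, had 38.7 and 6.48, and Nid1, a basement membrane protein, had 18.8 and 3.24. For each of these 6 genes MD1/MD1 XistdeltaA/+ was the highest of the 4 libraries, and for Igf2, H19, Hand1 and Cryab MD1/MD1 Xist1lox/+ was the lowest.

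Gpr137b, a lysosomal membrane protein, was the other pattern. It had 21.3 with XistdeltaA/+ and 3.39 with Xist1lox/+, and 22.5 and 3.15 in the +/+ pair, so it was low in both Xist1lox/+ libraries. Its window carried 1 strain alone in both Xist1lox/+ libraries and both strains in both XistdeltaA/+ libraries, so the strain alleles and the Xist mutation cannot be told apart for it. Gpnmb, a glycoprotein of macrophages, had 84.5 and 17.3, with 0.140 and 24.5 in the +/+ pair.

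Markers of macrophages and fibroblasts, other cell types that an EpiSC culture could hold, moved with the lower genes. All 18 tested macrophage markers had log2 ratios below 0 and 15 were past 2-fold lower, with a median of -1.30, against 0.03 over autosomal genes. Lyz2, the lysozyme of macrophages, had FPKM of 799 and 247, with 0.384 and 274 in the +/+ pair, and Ctss, a lysosomal protease, had 61.5 and 19.3, with 0.0436 and 24.0. All 15 fibroblast markers were below 0 and 7 were past 2-fold, with a median of -0.99 and summed FPKM of 582 and 309. Vim, the intermediate filament of mesenchymal cells, had 263 and 100.98, and Col1a1, a chain of type I collagen, had 30.7 and 12.7.

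Pooled over reads in windows with both alleles, 1.29% and 1.85% were paternal for macrophage markers and 8.02% and 10.9% for fibroblast markers. These pooled values rest mostly on Lyz2 (0.0265% of 11311 reads in XistdeltaA/+) and Vim (3.40% of 9299 reads). Other members were higher, as with Cd68 at 18.6% and 30.9%, Thy1 at 32.4% and 37.5% and Tagln at 52.5% and 47.1%. The 128 lower genes with shares in such windows had median shares of 15.5% and 20.1%, against 47.2% and 48.6% over all 6542 genes there. The lower genes as a set were thus read mostly from maternal-type alleles in both libraries. In bulk RNA, fewer cells of a type and less RNA per cell cannot be told apart, and the part of these markers in the other differences was not tested.

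Lists of pluripotency and signalling genes were read against the share over all genes tested, 0.312% past 2-fold higher and 2.35% lower. Among the 18 primed markers, Pou5f1 had FPKM of 856 and 873, Utf1 492 and 510, and Dnmt3b 320 and 268, and none passed 2-fold. Of 13 tested Nodal and Wnt targets, Lefty1 and Id1 were past 2-fold higher and none lower, with a median of 0.06. Of 16 genes that report FGF and MAPK signalling, Spry4 (22.9 and 8.14) and Dusp4 (17.4 and 6.79), both feedback inhibitors, were past 2-fold lower, with a median of -0.34. Spry4 lies in a window with 1 strain alone in XistdeltaA/+. Trophoblast markers had a median of -0.55, with Hand1 and Krt7 past 2-fold lower among 6 tested.

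Metabolic lists leaned toward Xist1lox/+. All 19 measured cholesterol synthesis genes had ratios above 0, none past 2-fold, with a median log2 ratio of 0.31, against 0.02 in the +/+ pair. Msmo1, a methylsterol oxidase, had FPKM of 97.4 and 148, and Fdps, which makes farnesyl diphosphate, had 154 and 220. Of 22 glycolysis and hypoxia genes 19 were above 0 and 1, Gapdh, which has near-identical copies, was past 2-fold, with a median of 0.41, against -0.38 in the +/+ pair. Aldoc, a glycolytic aldolase, had 20.1 and 35.8, and Egln1, an oxygen sensor, had 19.9 and 35.1. In both lists MD1/MD1 XistdeltaA/+ was the library with the lowest sum of the 4.

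**Figure D5:**
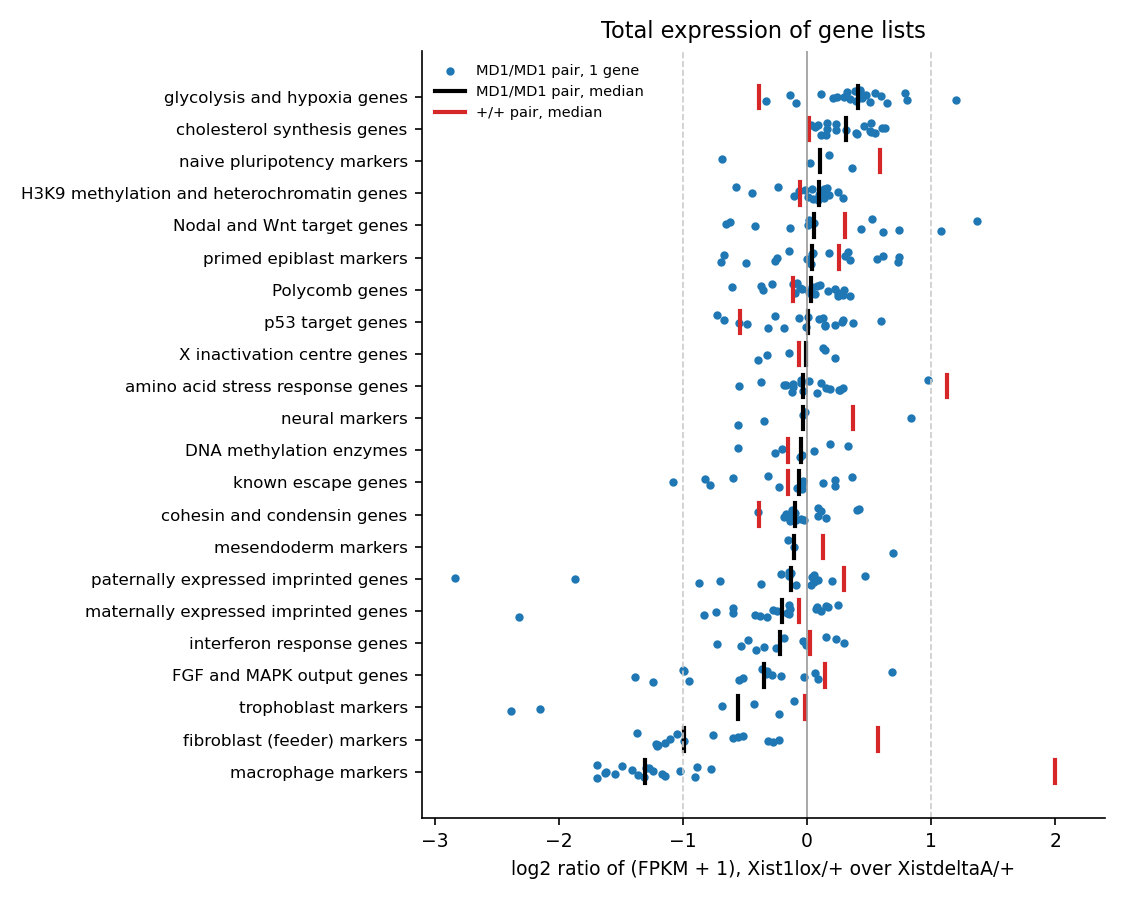
Log2 ratio of (FPKM + 1), Xist1lox/+ over XistdeltaA/+, for the members of gene lists (points) in the MD1/MD1 pair, with the list median in that pair (black) and in the +/+ pair (red). Dashed lines mark 2-fold, and macrophage and fibroblast markers lie to the left with medians of -1.30 and -0.99.

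Over all genes tested 0.312% were past 2-fold higher and 2.35% lower, so few calls would be met in lists of this size. No member of the lists of Polycomb genes (23 tested, median 0.03), H3K9 methylation and heterochromatin genes (21, median 0.09), DNA methylation enzymes (8, median -0.05) and cohesin and condensin genes (19, median -0.09) was past 2-fold. Ezh2, the methyltransferase of Polycomb complex PRC2, had FPKM of 80.3 and 96.0, and Trim28, a corepressor that recruits H3K9 methylation, had 399 and 443. The p53 targets (19, median 0.01), amino acid stress genes (19, median -0.03) and interferon response genes (12, median -0.22) had no member past 2-fold. The sign of the small p53 and cohesin medians changed with the scaling, to -0.08 and 0.02 when depth-scaled allele-assigned reads were used. The same stress list had a median of 1.13 in the +/+ pair, with 11 of 19 past 2-fold higher.

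Among imprinted genes, 2 of 17 paternally expressed (Igf2 and Peg10) and 1 of 20 maternally expressed (H19) were past 2-fold lower, and none higher. Peg10, a gene derived from a retrotransposon and expressed in placenta, had FPKM of 18.1 and 4.21 with shares of 98.3% and 96.996%. Its level thus differed while its parental bias did not move beyond the interval of -4.46 to 0.444 points.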

How the data were processed

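RNA from 4 female EpiSC libraries was sequenced from mRNA libraries that keep strand, per the labels' protocols. Build mm9, Cufflinks 2.2.1 and Cuffdiff were used, per the submitters' processing notes. The aligner, annotation and strain variants used were not given in the sources used here. As deposited, the table gives per gene and library an FPKM value, a count of allele-assigned reads and the fraction of those reads that were paternal. FPKM values were normalized by the authors for length and depth. Fraction times count, both as deposited by the authors, gave whole paternal reads for 100% of values within 1e-06. Starts count from 0 (of 1097 olfactory receptor genes, 84.0% had a length divisible by 3 when taken as end minus start, and 7.47% with 1 added) and are printed from 1. The table's 6 columns of samples outside the 4 were not used.

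Fisher's exact test, adjusted by Benjamini and Hochberg, compared shares over genes with at least 20 reads, and differences between pairs by a normal test of log odds ratios with 0.5 added to each count. Total expression was compared as log2(FPKM + 1), where the mean FPKM was at least 1, with no test, and past 2-fold was used for counts. An autosomal 10 Mb window was taken as holding both strain alleles where its median share was 25% to 75%, and 1 strain alone where it was under 5%. Intervals are at 95% and a count of 0 allows 3 counts of the total, both for counting error only. Reads carry no molecular identifiers in the table, so they are not independent molecules.

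Named X-linked genes were the 12 with the largest called difference in each direction at 50 reads or more, and the 12 with the highest shares within 5 points. Named expression genes were the 15 with the largest ratio in each direction at FPKM of at least 5 and all X-linked genes past 2-fold. For autosomal shares they were the 5 largest in each direction, of which 1 is not reported here, and for lists the members past 2-fold or the 4 with the highest FPKM. Slc35a2, Chic1, Huwe1, Trap1a, Nsdhl, Piga, Tmem47, Soat1, Lefty1 and other genes outside these rules were chosen after their values were seen. The members and lists were chosen with earlier results of these data known. On simulated reads for 351 genes, the test called 0.662% of 151 unchanged genes, 45% of 100 genes that differed by 5 points and 85% of 100 that differed by 15 points. The simulated reads held counting error alone, without the 2.35-fold spread seen on autosomal genes. The low rate on unchanged genes followed from that setting, so it does not give the error rate on the real reads. Python with numpy 2.4.6, pandas 2.3.3, scipy 1.17.1 and matplotlib 3.10.9 was used.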

Additional observations from a re-analysis of the deposited data

Results flagged for a closer look

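For 7 X-linked genes the log odds ratio of paternal reads between the Xist mutations differed between the MD1/MD1 pair and the +/+ pair. The test was a normal test of log odds ratios with Benjamini-Hochberg adjustment over 341 genes. Tmem47 had an adjusted p of 9.34e-36, with shares of 5.58% and 19.6% in the +/+ pair and 34.1% and 34.0% in the MD1/MD1 pair. Wbp5 had an adjusted p of 9.6e-06, with 1.49% and 4.31% in the +/+ pair and 3.60% and 3.30% in the MD1/MD1 pair. Snx12 had an adjusted p of 0.000403, and Utp14a, Yipf6 and Kif4 had 0.00674 each. Hmgn5 had an adjusted p of 0.0388. Kif4 was at 0% and 21.9% in the +/+ pair and at 13.6% and 32.2% in the MD1/MD1 pair. A call on the scale of odds can thus go with similar differences in points. With the variance raised to the autosomal spread, Tmem47 was the 1 gene still past the threshold.

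Markers of fibroblasts and macrophages differed in opposite directions between the pairs. The median log2 ratio of Xist1lox/+ over XistdeltaA/+ was -0.988 for fibroblast markers in the MD1/MD1 pair and 0.58 in the +/+ pair. For macrophage markers it was -1.3 and 1.999. These differences between pairs were not tested, since each group has 1 library.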

How the results depend on the processing

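No paired analysis was possible because each group has 1 library, and no library could be left out. Of the alternatives to counts, pooled values and X-linked medians, 44 kept them within 1.5 times, counting error or 0.1 log2 units. All alternatives for X-linked medians are among the 44, but that margin is wide for values so small. The X-linked median of 0.0659 became -0.0122 with depth-scaled allele-assigned reads. Its difference from autosomes, 0.0339, became -0.000611. The other 35 alternatives went past these limits and are given next. Raising the variance left 4 higher and 0 lower X-linked calls, and 4 higher calls remained without the genes within 15 Mb of Xist, chosen after seeing the data. Lower calls were 2 at an adjusted p under 0.01 and 1 with at least 5 points. The margin of 5 points gave 131 genes, 3 points gave 67 and 10 points gave 251. At a threshold of 5% paternal, 137 and 150 genes passed in XistdeltaA/+ and Xist1lox/+, 89 were reactivated in both and 29 in Xist1lox/+ alone. At 20% these were 22, 30, 11 and 7, with 4 in XistdeltaA/+ alone, and a minimum of 50 reads left 12 in Xist1lox/+ alone. Pooled shares were 9.23% and 9.40% without Xist, Ftx and Jpx, 6.87% and 7.61% with equal weight per gene, and 9.19% and 8.76% without the 15 Mb around Xist. Differences between pairs fell to 1 gene with the variance raised, also chosen after seeing the data. Genes past 2-fold higher numbered 78 with a pseudocount of 0.1, 142 from depth-scaled allele-assigned reads and 14 in windows with the same strain alleles and the X. At 1.5-fold there were 204 and at 3-fold 8. Lower genes numbered 441, 685, 671 and 68 under the pseudocount, the depth-scaled reads, 1.5-fold and 3-fold, and 143 at a mean FPKM of at least 5. Lists with a median of -0.5 or lower rose from 3 to 5 with depth-scaled reads. Of 118 list medians, 95 moved little and 23 moved. Among all 118, whether moved or not, 9 took another sign or went to 0. These were for naive, mesendoderm, germline, X inactivation centre, p53 and cohesin lists.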
